A study of Mus musculus with 15 samples.

Results

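Cultured mouse hepatocytes were exposed to growth hormone for 2 h, and their RNA was compared with that of hepatocytes given vehicle for the same time. The libraries were taken by the names of their count columns, which gave 3 libraries with growth hormone (replicates 1, 2 and 3) and 2 with vehicle (replicates 2 and 3). These are 5 of the 13 libraries in the study whose column could be assigned to a sample, out of 15 labelled samples. The 2 columns that share a name were not used. The samples without a column of their own name were vehicle replicate 1 and replicate 1 of female cells in serum of conventionally raised female mice. The comparison ran over 17405 expressed genes of 38087 in the table.

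The growth hormone group was made of female CD-1 hepatocytes in medium with 25% serum of germ-free female mice for 24 h, then with mouse growth hormone at 8 ng/ml for 2 h. The vehicle group had the same cells and the same serum, with PBS in place of the hormone. CD-1 is an outbred mouse stock, and germ-free mice are raised without microbes. The cells of both groups had been cryopreserved, seeded at 200000 per well on collagen, left for 6 h to attach and covered with a Geltrex matrix. The media of both groups held dexamethasone, insulin, penicillin and streptomycin, and the incubation medium also held transferrin, selenous acid, bovine albumin and linoleic acid. The labels do not say whether the replicates were separate cultures, donors or serum pools, so the p-values measure the spread between libraries, which may be technical. The other 8 libraries held female cells in serum of conventionally raised male (3) or female (2) mice and male cells in serum of conventionally raised male mice (3), all with vehicle.

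Growth hormone is a pituitary hormone that acts on the liver through its receptor, Ghr, and the kinase Jak2. Jak2 phosphorylates the transcription factors Stat5a and Stat5b, which bind DNA and switch on genes such as Igf1 and the feedback inhibitors Cish and Socs2, and repress Bcl6. NF-kB, in contrast, is the transcription factor family that Toll-like receptors, interleukin 1 and tumour necrosis factor activate. Its target genes encode cytokines, chemokines, adhesion molecules and its own inhibitors, and in liver it acts beside the interleukin 6 pathway on the plasma proteins of the acute phase.

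With growth hormone, 102 of 17405 genes passed the test, which is 0.586% of those tested: 89 were higher (0.511%) and 13 lower (0.0747%). The test was the quasi-likelihood F test of edgeR with Benjamini-Hochberg adjustment across the genes in the fit, and an adjusted p under 0.05 counted as passing. The largest rises among genes with a mean of at least 50 counts were those of the cytokines Il1b, Il1a and Il6, the chemokines Ccl4, Ccl20 and Ccl3 and the nitric oxide synthase Nos2. These 7 stood at 2.14 to 12.4 CPM (counts scaled by library size) in the hormone libraries and at no more than 0.390 CPM in the vehicle libraries. All but Ccl20 and Ccl3 passed the filter on low counts only through the hormone libraries, so they could hardly fall. Of the growth hormone feedback genes, Socs2 and Socs3 rose and Bcl6 fell, while Cish and Igf1 did not pass the test. Of the 89 rises, 40 were over 2-fold, 31 between 1.5-fold and 2-fold and 18 smaller, and 2 of the 13 falls were over 2-fold. The median log2 change of all genes tested was -0.0011.

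**Figure D1:**
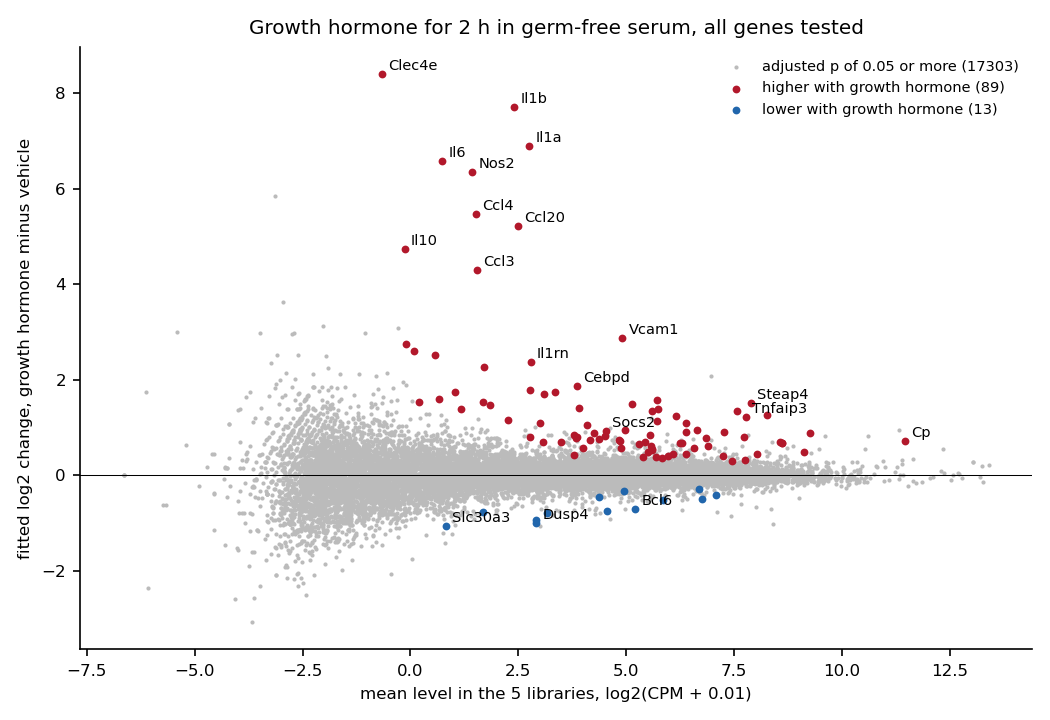
Each point is a gene tested, with the mean level in the 5 libraries on the horizontal axis, as log2(CPM + 0.01), and the fitted log2 change, growth hormone minus vehicle, on the vertical axis; red points are the 89 genes that were higher, blue points the 13 that were lower and grey points those that did not pass. The points above 4 that passed are labelled, from Clec4e down to Ccl3, and lie at low mean levels; the value drawn for Clec4e, which had 0 counts with vehicle, depends on the small count that the fit adds.

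Library totals ran from 41584999 to 48742274 counts with growth hormone and were 40393393 and 35442492 with vehicle. The common biological coefficient of variation was 9.02% over the 13 libraries. Replicates differed by more than sampling noise, with a chi-square per degree of freedom of 9.26 to 41.0 between hormone libraries and 14.2 between the vehicle libraries. Growth hormone replicate 1 stood apart. Xist, a nuclear noncoding RNA, had 32396 counts there, 16519 and 18293 in the other hormone libraries, and 14989 and 10361 with vehicle. Neat1, another nuclear RNA, had 6902 CPM of unscaled totals there, 1561 and 991 in the other hormone libraries, and 2539 and 855 with vehicle. Replicate 1 was the highest of the 3 hormone libraries in 66 of the 89 rises (74.2%, against 38.2% of all genes tested) and the lowest in 10 of the 13 falls. Without it, 54 genes rose (0.313%) and 1 fell, 55 in all (0.319% of those tested), and all of these were among the 102. The part of nuclear RNA in the differences was not tested.

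None of the 26 tested genes of the growth hormone receptor and JAK-STAT machinery passed the test, and their median log2 change was 0.03. Ghr, the receptor (mm10 chromosome 15, 3317760 to 3583492), had 227, 198 and 201 CPM with growth hormone and 158 and 170 CPM with vehicle. Its 3 hormone libraries all lay above both vehicle libraries, at a log2 change of 0.35 ± 0.10 (SE) and an adjusted p of 0.178 (edgeR). Jak2, the kinase bound to the receptor, had 83.7, 76.1 and 78.9 CPM with the hormone and 64.3 and 65.5 CPM with vehicle (0.29, adjusted p 0.219, edgeR). Ghr and Jak2 passed the test only when no filter on low counts was used. Prlr, the related prolactin receptor, gave 0.26 and Stat5a 0.20, and neither passed. Prlr shares its locus with a clone-named model on the same strand, and Stat5a overlaps Stat3 on the opposite strand, which had 968% of its counts, so reads of these neighbours may be counted with them. Stat5b had 61.7, 59.3 and 60.0 CPM with growth hormone against 60.8 and 62.9 CPM with vehicle (-0.04).

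The feedback inhibitors of the SOCS family bind phosphorylated receptors or JAK kinases and end the signal. They gave 2 rises among 8 members (0.511% of all genes tested rose) and a median log2 change of 0.13. Socs2, the family member that acts most directly on growth hormone signalling (chromosome 10, 95385362 to 95417180), had 31.3, 26.9 and 27.2 CPM with the hormone and 15.5 and 14.6 CPM with vehicle. The groups did not overlap, and the change of 0.92 ± 0.12 passed the test (adjusted p 0.000494, edgeR) under each of the 14 alternative settings as well. In the 8 libraries outside the comparison Socs2 ran from 10.8 to 24.5 CPM. Socs3, better known for ending interleukin 6 signals, had 13.8, 12.8 and 12.9 CPM with growth hormone and 7.71 and 8.61 CPM with vehicle (0.69 ± 0.11, adjusted p 0.00483, edgeR). It lost its call without vehicle replicate 2 (adjusted p 0.168). Cish, a classical STAT5 target (chromosome 9, 107296026 to 107302784), had 57.2, 54.7 and 54.3 CPM with the hormone and 43.3 and 39.4 CPM with vehicle. The groups did not overlap here either, but the change of 0.42 ± 0.14 did not pass the test (adjusted p 0.235, edgeR). In the 8 libraries outside the comparison Cish ran from 25.0 to 58.1 CPM, and the highest of these, female cells in serum of conventionally raised male mice, was above all 3 hormone libraries. The change passed in a fit of only the 5 libraries and in a fit without the low-count filter. Socs1 was near the limit of detection, with 0.475 to 0.804 CPM with the hormone and 0.505 and 0.585 CPM with vehicle, and Socs4 to Socs7 gave log2 changes of -0.06 to 0.11.

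Among 22 tested target genes of growth hormone and STAT5 in liver, a list that holds the SOCS genes too, 2 rose and 1 fell, with a median log2 change of 0.14. Of all genes tested 0.511% rose and 0.0747% fell. The fall in the list was that of Bcl6, a transcriptional repressor that competes with STAT5 at shared DNA sites (chromosome 16, 23965052 to 23988852). It had 26.2, 33.7 and 28.5 CPM with growth hormone and 53.2 and 43.8 CPM with vehicle, so every hormone library lay below every vehicle library. The change was -0.72 ± 0.12 (adjusted p 0.00606, edgeR), and without vehicle replicate 2 it did not pass (0.216). Igf1, the hormone that carries many effects of growth hormone, had 429, 394 and 401 CPM with the hormone and 335 and 366 CPM with vehicle (0.22, adjusted p 0.283, edgeR). Its partner in plasma, Igfals, gave 0.29 and Igfbp1, an IGF-binding protein, 0.22, and none of the 11 tested genes around IGF1 passed. Onecut1, a hepatocyte factor, was under 1 CPM in all 5 libraries and lies in the model Gm20649 on the same strand.

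**Figure D2:**
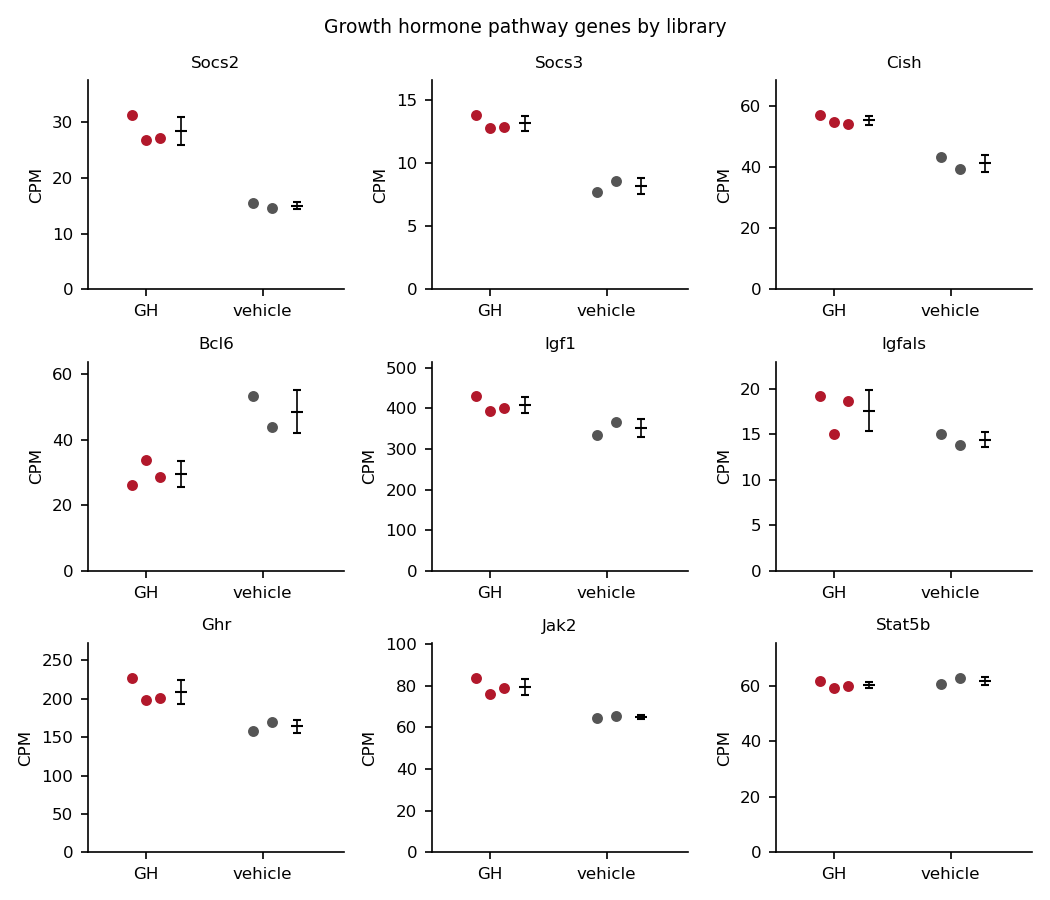
The CPM of 9 genes of the growth hormone pathway is plotted by library, with growth hormone (red, 3 libraries) left of vehicle (grey, 2 libraries) and the mean with its SD beside each group. Socs2, Socs3, Cish, Igf1, Igfals, Ghr and Jak2 lie higher in every hormone library than in either vehicle library, as did 16.6% of all genes tested. Igfals does so by a narrow margin (15.04 against 15.02 CPM). Bcl6 lies lower, as did 15.3% of all genes tested, and Stat5b overlaps.

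The promoters of Cish, Socs3 and Bcl6 are shown because they carry the spaced palindrome TTCNNNGAA that STAT5 dimers bind. The sequences are those of RefSeq on GRCm38.p6, from 250 bases before to 50 bases after a RefSeq transcript start, written 5′ to 3′ on the strand of the gene, with matches in capitals. Cish lies on the plus strand at chr9:107296409-107296708, Socs3 on the minus strand at chr11:117969317-117969616 and Bcl6 on the minus strand at chr16:23988803-23989102.
Cish: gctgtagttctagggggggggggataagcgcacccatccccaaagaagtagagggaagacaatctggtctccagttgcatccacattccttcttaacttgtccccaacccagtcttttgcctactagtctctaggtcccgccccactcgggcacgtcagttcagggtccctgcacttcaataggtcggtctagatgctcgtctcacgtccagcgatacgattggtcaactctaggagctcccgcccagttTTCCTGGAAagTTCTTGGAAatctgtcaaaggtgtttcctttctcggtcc
Socs3: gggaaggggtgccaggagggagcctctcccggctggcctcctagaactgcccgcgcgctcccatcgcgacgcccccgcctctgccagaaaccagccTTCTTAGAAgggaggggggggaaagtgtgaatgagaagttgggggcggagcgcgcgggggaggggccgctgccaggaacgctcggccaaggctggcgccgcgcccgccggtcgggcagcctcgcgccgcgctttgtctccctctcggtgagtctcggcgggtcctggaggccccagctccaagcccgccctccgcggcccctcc
Bcl6: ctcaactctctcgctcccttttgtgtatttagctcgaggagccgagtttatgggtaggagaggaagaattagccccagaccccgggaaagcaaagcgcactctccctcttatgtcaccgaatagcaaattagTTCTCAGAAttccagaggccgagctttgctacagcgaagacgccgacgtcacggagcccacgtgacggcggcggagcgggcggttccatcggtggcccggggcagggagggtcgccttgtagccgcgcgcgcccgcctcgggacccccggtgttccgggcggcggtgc
The RefSeq starts of Cish and Socs3 lie 633 and 681 bases inside the gene limits of GENCODE M21, and that of Bcl6 at its limit. Counted from the RefSeq start base, Cish held TTCCTGGAA at 1 and TTCTTGGAA at 12, Socs3 held TTCTTAGAA at -154 and Bcl6 held TTCTCAGAA at -118. The motif reads the same on both strands in its fixed letters. A promoter in the RefSeq table was found for 69 of the 89 genes that rose and 9 of the 13 that fell; Socs2 had none. TTCNNNGAA was in 8 of the 69 (11.6%), in 2 of the 9 (22.2%) and in 941 of the 11161 promoters of all tested genes that were matched (8.43%). A match describes letters in this window and no binding was measured.

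Cytokines and colony-stimulating factors gave 8 rises and no fall among 22 tested genes, while 0.511% of all genes tested rose. Their median log2 change was 0.69 against -0.0011 over all genes. Il1a, Il1b, Il6 and Il10 had at most 0.154 CPM in any library without the hormone. Tnf had 0.336 CPM in vehicle replicate 2 and at most 0.202 CPM in every other library without the hormone. These genes would not have passed the low-count filter without the hormone libraries, so they could hardly fall. The count of rises and the median are in part set by this filter. Il1b, interleukin 1 beta (chromosome 2, 129364570 to 129371139), had 7.72, 9.60 and 8.88 CPM with growth hormone and 0.024 and 0.0557 CPM with vehicle. That is 1205 counts against 3, a ratio of 225 (exact Clopper-Pearson 95% interval 76.7 to 1092, for counting error only). Its neighbour Il1a, interleukin 1 alpha (chromosome 2, 129299610 to 129309972), had 9.88, 12.4 and 10.98 CPM with the hormone and 0.0721 and 0.111 CPM with vehicle, a ratio of 122 (59.2 to 305). Both passed the test, at adjusted p 3.33e-08 and 2.9e-09 (edgeR). In the 8 other libraries Il1b ran from 0 to 0.0447 CPM and Il1a from 0.0506 to 0.144 CPM, so the 3 hormone libraries stood alone in the study. Il6, the main inducer of acute phase proteins, had 2.14, 3.66 and 2.46 CPM with growth hormone and 0.0481 and 0 CPM with vehicle (ratio 105, 28.9 to 872, from 376 against 2 counts). With 1 and 2 vehicle counts for Il1b and 2 and 0 for Il6, the size of these changes rests on few reads: the fitted log2 change of Il1b was 7.71 and, without vehicle replicate 3, 8.33, and that of Il6 was 6.58 and, without vehicle replicate 3, 5.75. Without vehicle replicate 2, Il6 has no vehicle count left and no size can be given. Il1rn, the natural antagonist of interleukin 1 (chromosome 2, 24336853 to 24351494), had 10.4, 9.48 and 10.6 CPM with the hormone and 1.92 and 2.01 CPM with vehicle (2.37 ± 0.19, adjusted p 2.89e-06, edgeR).

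Il10, a cytokine that restrains inflammation, had 205 counts with growth hormone and 4 with vehicle (ratio 28.7, 11.04 to 106), and its call was lost with DESeq2 and without vehicle replicate 2, where the log2 change was 3.69 against 4.74 with all libraries. Without vehicle replicate 3, Il10 has no vehicle count and no size. Tnf, tumour necrosis factor, had 1.61, 1.76 and 1.36 CPM with the hormone and 0.336 and 0.167 CPM with vehicle (ratio 6.07, 3.84 to 10.1). Its call was lost without growth hormone replicate 1 and without either vehicle library, and its log2 change of 2.61 became 3.21 without vehicle replicate 2. Csf1, the growth factor of macrophages (chromosome 3, 107741048 to 107760469), was the most abundant of the 8, with 74.5, 65.2 and 60.4 CPM with growth hormone and 32.6 and 28.5 CPM with vehicle (1.13 ± 0.09, adjusted p 2.89e-06, edgeR). Csf2, a growth factor of granulocytes and macrophages, had 3.41, 5.44 and 4.07 CPM with the hormone and 1.298 and 1.7 CPM with vehicle (1.52), a call lost without either vehicle library. Members that did not pass included Lif (0.35, adjusted p 0.0797, edgeR), Il18 (0.39) and Clcf1 (0.16). Without growth hormone replicate 1, 7 of the 22 rose.

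Chemokines, the secreted proteins that draw leukocytes, gave 10 rises and 1 fall among 25 tested genes, at a median of 0.34. Without growth hormone replicate 1 they gave 8 rises. Of all genes tested 0.511% rose and 0.0747% fell. Ccl4, like Il1b, passed the low-count filter only through the hormone libraries. Ccl20, which attracts cells with the receptor Ccr6 (chromosome 1, 83116766 to 83119167), had 10.9, 7.41 and 9.37 CPM with growth hormone and 0.264 and 0.223 CPM with vehicle. The ratio of pooled counts was 38.0 (24.2 to 63.3), and the other 8 libraries of the study held at most 0.612 CPM. Ccl3 and Ccl4 lie next to each other on chromosome 11 (83647844 to 83649355 and 83662584 to 83664683) and share receptors on monocytes and T cells. Ccl4 had 4.08, 5.39 and 4.56 CPM with the hormone and 0.0961 and 0.111 CPM with vehicle (ratio 45.1, 22.7 to 105). Ccl3 had 4.70, 4.63 and 4.64 CPM with the hormone and 0.0961 and 0.390 CPM with vehicle (ratio 20.1, 12.6 to 34.1); its log2 change was 4.29 with all libraries, 3.57 without vehicle replicate 2 and 5.56 without vehicle replicate 3. In the same gene cluster Ccl9 rose (0.83), Ccl6 fell and Ccl5 did not pass (-0.38). Ccl6, known from macrophages and myeloid cells, had 6.94, 7.84 and 5.93 CPM with growth hormone and 11.03 and 12.9 CPM with vehicle (-0.79 ± 0.15, adjusted p 0.0229, edgeR). The calls of Ccl6 and Ccl9 were each lost in 6 settings, among them without growth hormone replicate 1. Ccl2 and Ccl7, monocyte attractants in a second group on the same chromosome (from 82035571 to 82047525), were already abundant. Ccl2 had 786, 688 and 783 CPM with growth hormone and 386 and 431 CPM with vehicle (0.88 ± 0.08), and Ccl7 rose by 1.09 ± 0.10.

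In the cluster of CXC chemokines on chromosome 5, Cxcl1, Cxcl2, Cxcl3 and Cxcl5, which attract neutrophils, rose, while Ppbp (0.25) and Pf4 (0.44), known from platelets, did not pass. Cxcl1 (90891241 to 90893115) had 274, 237 and 240 CPM with growth hormone and 93.5 and 103 CPM with vehicle (1.35 ± 0.09, adjusted p 3.1e-07, edgeR). Cxcl2 (90903871 to 90905938) had 37.3, 41.3 and 38.5 CPM with the hormone and 20.6 and 19.7 CPM with vehicle (0.95 ± 0.11). Cxcl3 and Cxcl5 were scarcer and rose by 1.09 and 1.39, at adjusted p 0.00569 and 0.0326 (edgeR); the call of Cxcl3 was lost without either vehicle library, and that of Cxcl5 whichever of the 5 libraries was left out. Cxcl1, Cxcl2 and Cxcl3 were higher in each hormone library than in any other library of the study. In contrast, Cxcl9, Cxcl10 and Cxcl11, the interferon-inducible members further along the chromosome, did not pass (0.31, -0.20 and 0.34). Cxcl10 had 12.3, 19.8 and 17.3 CPM with growth hormone and 18.2 and 19.5 CPM with vehicle.

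The promoters of Cxcl1, Cxcl2 and Cxcl3 are shown with those of Nfkbia, Csf1 and Il6 because each held, on at least 1 strand, the NF-kB motif searched, which is GGGA and TTCC with any 2 bases between them. Build, window, source and direction are as above, and capitals mark the matches; a match on the opposite strand reads GGAA and TCCC with any 2 bases between. The windows are chr5:90890995-90891294 (plus strand) for Cxcl1, chr5:90903649-90903948 (plus) for Cxcl2, chr5:90785851-90786150 (plus) for Cxcl3, chr12:55492598-55492897 (minus) for Nfkbia, chr3:107760420-107760719 (minus) for Csf1 and chr5:30012864-30013163 (plus) for Il6.
Cxcl1: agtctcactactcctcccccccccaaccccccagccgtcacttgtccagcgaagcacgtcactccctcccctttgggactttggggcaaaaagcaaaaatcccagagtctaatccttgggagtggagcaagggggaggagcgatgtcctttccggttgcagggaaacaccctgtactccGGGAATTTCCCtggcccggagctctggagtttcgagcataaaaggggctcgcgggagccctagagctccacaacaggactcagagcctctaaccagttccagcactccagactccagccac
Cxcl2: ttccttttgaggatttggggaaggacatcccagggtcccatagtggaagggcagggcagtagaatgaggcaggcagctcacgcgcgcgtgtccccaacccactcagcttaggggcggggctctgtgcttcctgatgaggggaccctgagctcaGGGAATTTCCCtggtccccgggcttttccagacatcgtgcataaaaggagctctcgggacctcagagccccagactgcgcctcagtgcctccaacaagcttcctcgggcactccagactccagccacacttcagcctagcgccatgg
Cxcl3: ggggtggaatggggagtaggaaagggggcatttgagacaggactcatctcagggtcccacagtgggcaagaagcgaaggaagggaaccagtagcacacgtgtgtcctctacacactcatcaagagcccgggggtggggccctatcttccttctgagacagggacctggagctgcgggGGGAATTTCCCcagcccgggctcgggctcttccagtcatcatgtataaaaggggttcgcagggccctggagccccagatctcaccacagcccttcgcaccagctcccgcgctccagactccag
Nfkbia: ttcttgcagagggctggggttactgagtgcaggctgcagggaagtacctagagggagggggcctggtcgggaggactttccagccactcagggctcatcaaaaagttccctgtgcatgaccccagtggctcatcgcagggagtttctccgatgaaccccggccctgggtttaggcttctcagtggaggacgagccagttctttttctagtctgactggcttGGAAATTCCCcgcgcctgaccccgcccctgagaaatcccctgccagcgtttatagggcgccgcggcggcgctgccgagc
Csf1: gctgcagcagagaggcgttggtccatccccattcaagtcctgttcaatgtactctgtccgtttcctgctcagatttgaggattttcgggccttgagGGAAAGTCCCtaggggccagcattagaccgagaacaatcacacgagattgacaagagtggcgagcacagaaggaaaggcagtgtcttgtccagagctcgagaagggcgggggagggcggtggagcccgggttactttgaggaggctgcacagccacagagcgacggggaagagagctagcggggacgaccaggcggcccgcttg
Il6: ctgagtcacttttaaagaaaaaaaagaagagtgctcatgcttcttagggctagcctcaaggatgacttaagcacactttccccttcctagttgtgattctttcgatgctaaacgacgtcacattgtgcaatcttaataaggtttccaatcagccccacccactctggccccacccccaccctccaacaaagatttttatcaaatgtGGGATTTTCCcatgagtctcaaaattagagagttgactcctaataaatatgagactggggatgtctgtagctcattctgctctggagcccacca
All 3 chemokine promoters carried GGGAATTTCC, at -71 in Cxcl1, -97 in Cxcl2 and -73 in Cxcl3, with a second match on the opposite strand that starts 1 base later. Nfkbia held GGAAATTCCC at -29, Csf1 GGAAAGTCCC at -154 and Il6 GGGATTTTCC at -44. Counting both strands, the motif was in 8 of the 69 promoters of genes that rose (11.6%), in 0 of the 9 of genes that fell and in 195 of 11161 of all tested genes (1.75%). The AP-1 motif TGANTCA, whose fixed letters read the same on both strands, was found in 12 of 69 (17.4%), 1 of 9 (11.1%) and 772 of 11161 (6.92%). A promoter can hold more than 1 of these motifs, as that of Il6 held both.

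NF-kB subunits and feedback regulators gave 9 rises among 28 tested members (0.511% of all genes tested rose), at a median of 0.34, and 8 without growth hormone replicate 1. None of the 5 subunits passed: Nfkb1 gave 0.17, Rela -0.13, Relb -0.02, Nfkb2 -0.05 and Rel 0.50. Nfkbia, the inhibitor that holds NF-kB in the cytoplasm (chromosome 12, 55489410 to 55492647), had 139 CPM in each of the 3 hormone libraries and 80.9 and 82.1 CPM with vehicle (0.77 ± 0.07, adjusted p 9.56e-06, edgeR). Tnfaip3, also known as A20, which removes ubiquitin from signalling complexes, had 322, 251 and 274 CPM with the hormone and 124 and 118 CPM with vehicle (1.22 ± 0.10). Nfkbiz, a nuclear cofactor needed for Il6 transcription, had 106, 81.1 and 88.6 CPM with growth hormone and 39.6 and 38.8 CPM with vehicle (1.23 ± 0.10). No hormone library of these 3 genes overlapped a vehicle library. Ripk2, the kinase downstream of the NOD receptors, rose by 1.58 ± 0.14, and Tnfaip2 by 1.49 ± 0.13. Zc3h12a, a ribonuclease that degrades cytokine transcripts, rose by 1.06, and the ubiquitin ligases Birc2 and Birc3 by 0.84 and 0.44; the calls of Zc3h12a and Birc3 were lost without either vehicle library. Ikbke, an IkB-kinase relative, rose by 0.67 and lost its call in 5 settings. Bcl3 (0.61), Nfkbie (0.48) and Cyld (0.28) did not pass.

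Of 26 tested Toll-like receptor and interleukin 1 signalling genes, Tlr2, the receptor for bacterial lipoproteins (chromosome 3, 83836272 to 83841767), was the only rise. It had 80.1, 65.6 and 67.9 CPM with growth hormone and 25.9 and 29.0 CPM with vehicle (1.38 ± 0.16, adjusted p 0.000134, edgeR). Tlr4, the receptor for lipopolysaccharide, had 2.77, 3.21 and 2.97 CPM with the hormone and 3.92 and 2.90 CPM with vehicle, and the adaptor Myd88 gave 0.04. Of 10 tested leukocyte adhesion molecules 2 rose. The share of all genes tested that rose was 0.511%. Vcam1, which binds integrins of lymphocytes and monocytes (chromosome 3, 116109949 to 116129688), had 48.5, 42.2 and 47.2 CPM with growth hormone and 6.54 and 6.10 CPM with vehicle. The change of 2.86 ± 0.17 passed in every setting (adjusted p 8.9e-08, edgeR). Icam1, the ligand of leukocyte integrins (chromosome 9, 21015985 to 21028817), had 219, 168 and 178 CPM with the hormone and 105 and 97.3 CPM with vehicle (0.90 ± 0.10). Nos2, which makes nitric oxide from arginine (chromosome 11, 78920787 to 78960254), had 4.95, 3.92 and 4.46 CPM with growth hormone and 0 and 0.111 CPM with vehicle, a ratio of 86.5 (33.6 to 318) from 618 against 4 counts. Its log2 change was 6.34, and 5.28 without vehicle replicate 2. Without vehicle replicate 3 no vehicle count is left and no size can be given. Nos2 had at most 0.115 CPM in any library without the hormone. It passed the low-count filter only through the hormone libraries, so it could hardly fall. Irg1, the enzyme that makes itaconate, had 306 counts with the hormone and 30 with vehicle (ratio 5.71, 3.92 to 8.61), but its 1.97 to 2.35 CPM with the hormone lay below the 10.8, 8.93 and 9.19 CPM of male cells in serum of conventionally raised male mice. Irg1 lost its call without either vehicle library.

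**Figure D3:**
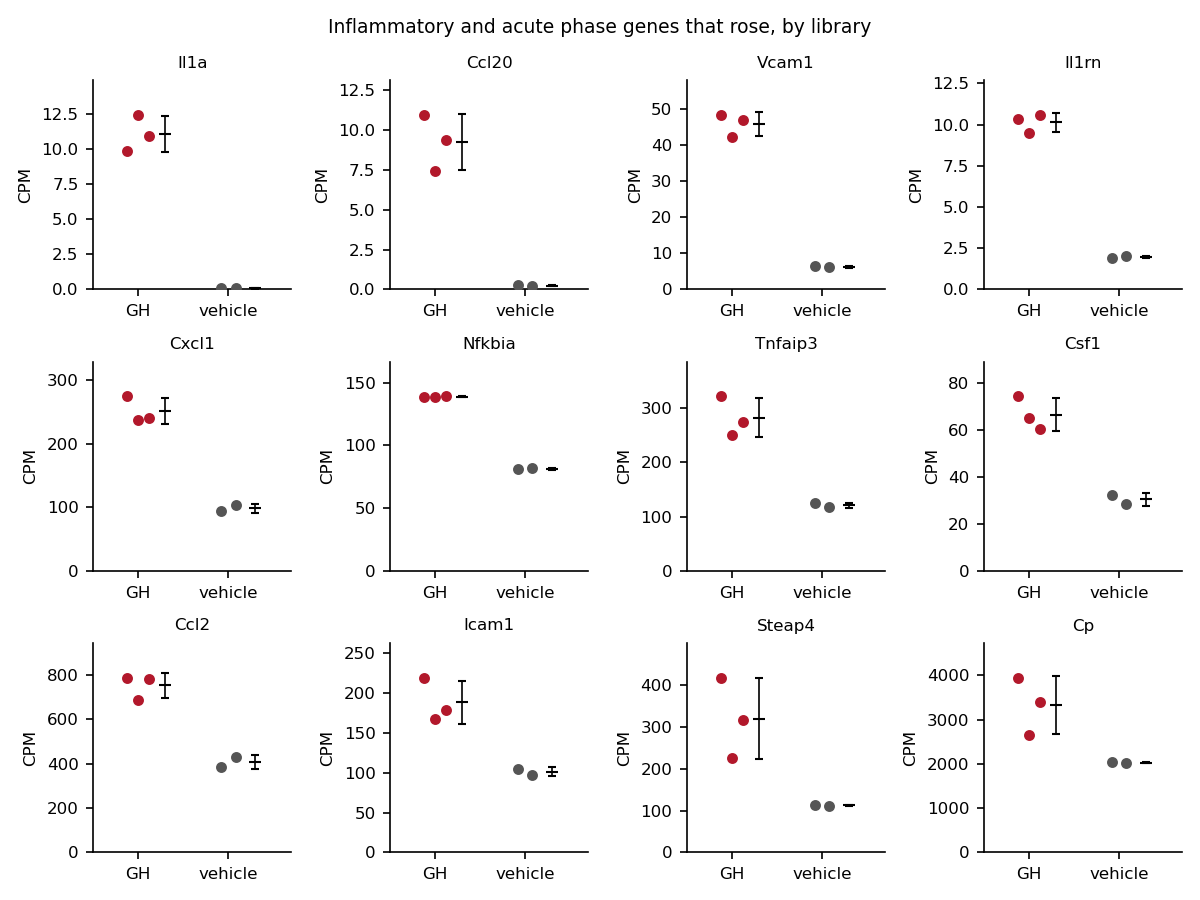
The CPM of 12 inflammatory and acute phase genes that rose is plotted by library, growth hormone (red, 3 libraries) left of vehicle (grey, 2 libraries), with mean and SD beside each group. Nfkbia sits at 139 CPM in all 3 hormone libraries, while Steap4 (225 to 417 CPM) and Cp (2654 to 3941 CPM) spread widely with replicate 1 on top, and no hormone library overlaps a vehicle library.

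Other liver cell types could be present in a hepatocyte preparation, and in bulk RNA fewer cells of a type and less RNA per cell cannot be told apart. Hepatocyte markers summed to 26533 to 32611 CPM with growth hormone and 25087 to 25562 CPM with vehicle, and none of the 24 was at 0. Of 24 markers of Kupffer cells and macrophages, 13 were under 1 CPM in all 5 libraries, among them Adgre1, Vsig4 and Csf1r, and 4 (Cd5l, Marco, Timd4 and Clec7a) had too few counts to be tested. Their sum was lower with the hormone, at 118 to 135 CPM against 148 to 156 CPM with vehicle. Cd68 made up most of it, with 84.2, 101 and 102 CPM with growth hormone and 129 and 119 CPM with vehicle. Clec4f, the marker most specific to Kupffer cells, had 1.57, 2.19 and 1.61 CPM with the hormone and 2.64 and 3.37 CPM with vehicle. The tested markers of this list went both ways. Of the 20 tested, 8 had a positive log2 change. In 6 every hormone library lay above both vehicle libraries (16.6% of all genes tested) and in 5 every one lay below (15.3%). The only member that passed the test was Cybb, the NADPH oxidase subunit of phagocytes, which rose, as did 0.511% of all genes tested. Cybb had 1.44, 1.14 and 1.63 CPM with growth hormone and 0.240 and 0.167 CPM with vehicle. Of 26 markers of neutrophils, T and B cells, 24 were under 1 CPM in all 5 libraries, and their sum was 3.30 to 4.99 CPM with the hormone and 3.53 to 3.82 CPM with vehicle. Sinusoidal endothelial markers summed to 55.3 to 58.4 CPM with growth hormone and 56.0 to 57.0 CPM with vehicle. Stellate cell and fibroblast markers summed to 31.8 to 47.7 CPM with the hormone and 56.1 to 57.8 CPM with vehicle, with 0 of 14 called and a median of -0.44. Which cells made the cytokines was not tested.

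The acute phase list holds plasma proteins that hepatocytes secrete in inflammation. It also holds genes whose products are not plasma proteins, such as Cebpd and Steap4, which are among its rises. The list gave 7 rises among 31 tested members, while 0.511% of all genes tested rose. All 31 had a positive log2 change, at a median of 0.34; over all genes tested 49.7% were positive. Hepatocyte markers leaned the same way, with 22 of 24 positive (91.7%) and 0 called, while 7.14% of the 14 stellate cell markers were positive; the part of this lean in the acute phase list was not tested. Cebpd, a transcription factor of the acute phase response, had 25.1, 16.1 and 20.2 CPM with growth hormone and 5.67 and 5.55 CPM with vehicle (1.87 ± 0.21, adjusted p 0.000109, edgeR). It overlaps 2310008H04Rik on the opposite strand, which had 93.6% of its counts and a log2 change of 0.11, and the strand setting of the count is not given in the sources used here. Steap4, a metal reductase (chromosome 5, 7960457 to 7982213), had 417, 225 and 316 CPM with the hormone and 113 and 111 CPM with vehicle (1.51 ± 0.23). Its call was lost without either vehicle library. Cp, ceruloplasmin, the copper carrier of plasma, had 3941, 2654 and 3391 CPM with the hormone and 2042 and 2017 CPM with vehicle (0.71 ± 0.14). Crp, C-reactive protein, gave 0.79, Cfb, complement factor B, 0.68 and Saa4, a constitutive serum amyloid, 0.56.

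The call of these last 4 was lost without growth hormone replicate 1, which left 3 rises in the list (Cebpd and Steap4 among them) and a median of 0.26; leaving out each library in turn gave 1 to 14 rises. Cfb, the complement gene C2 and the model Gm20547 share their locus on the same strand and nearly all their counts, so they stand for a single measurement. The inducible serum amyloids Saa1 and Saa2 gave 0.12 and 0.07. The fibrinogen chain Fga had 1272, 610.4 and 957 CPM with growth hormone and 532 and 537 CPM with vehicle, and haptoglobin, Hp, had 2470, 1201 and 1981 CPM with the hormone and 1088 and 1056 CPM with vehicle. Both were higher in all 3 hormone libraries and did not pass (0.82, adjusted p 0.106, and 0.81, adjusted p 0.104, edgeR), with the highest value in replicate 1. Saa4 had 36.7, 30.4 and 34.3 CPM with growth hormone, against 51.1 and 48.7 CPM in serum of conventionally raised female mice without the hormone. Steap4 overlapped between these groups, with 356 and 222 CPM in the conventional serum. These levels were not tested against each other.

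**Figure D4:**
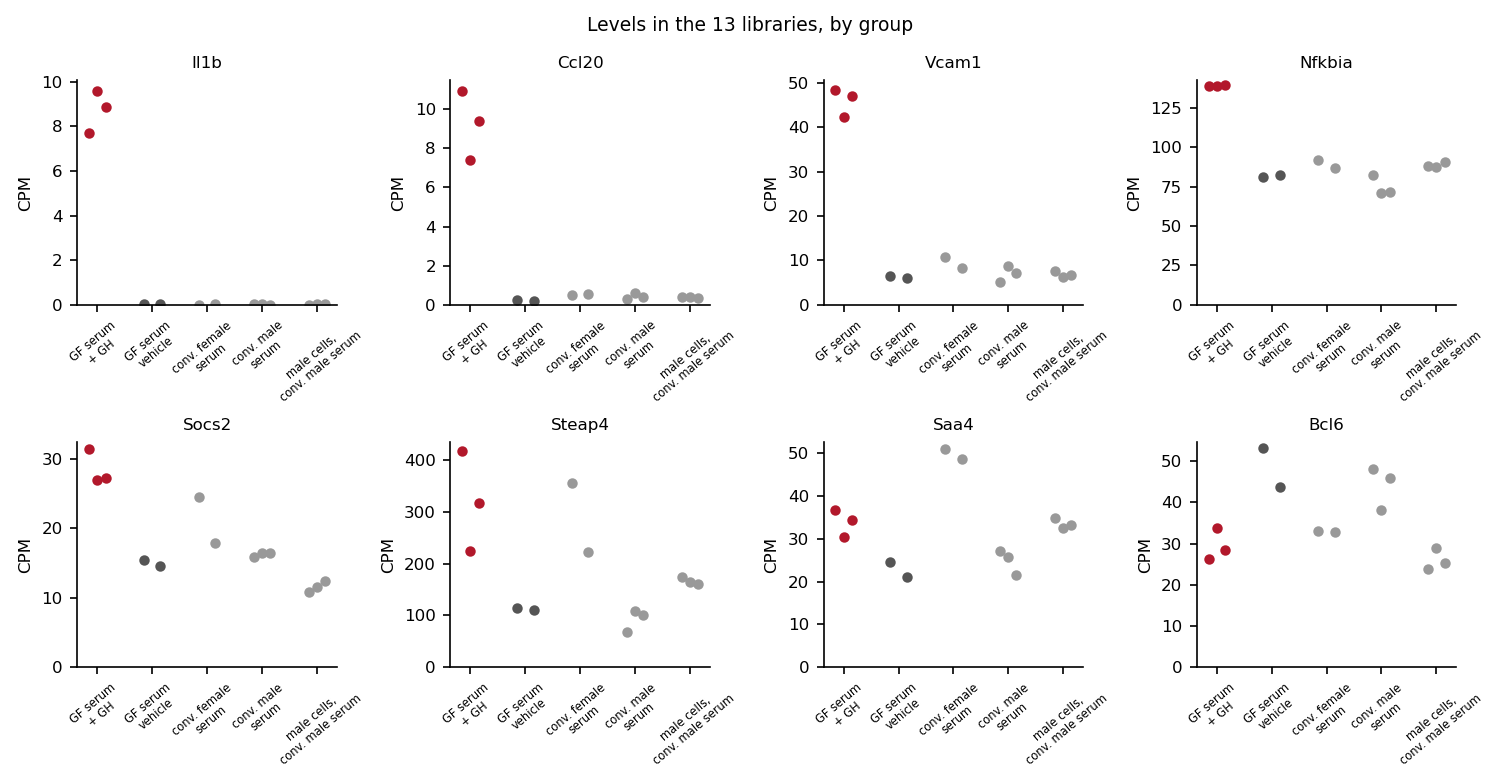
The CPM of 8 genes is plotted in the 13 libraries by group: female cells in germ-free serum with growth hormone (red) and with vehicle (dark grey), and, in light grey, female cells in serum of conventionally raised female and male mice and male cells in serum of conventionally raised male mice. Il1b, Ccl20, Vcam1, Nfkbia and Socs2 are highest in the hormone libraries, whereas in Steap4 and Bcl6 the hormone libraries overlap other groups and in Saa4 they lie below those in conventional female serum.

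Of the 89 rises, 53 had each hormone library above the other 10 libraries of the study, which held for 0.954% of all genes tested. None of the 13 falls was below the other 10 libraries throughout; the share over all genes was 0.523%. All 89 rises had every hormone library above both vehicle libraries, as did 16.6% of all genes. All 13 falls had every hormone library below, as did 15.3%. The genes were called by a test of these same hormone and vehicle libraries, so this separation adds no support to the calls. The vehicle libraries are also among the other 10 libraries, so the count of 53 is in part set by the test.

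Immediate early genes are transcribed soon after many stimuli. Of 35 tested 1 rose, Ier3, which protects cells from apoptosis, with 142, 138 and 133 CPM with growth hormone and 85.8 and 95.9 CPM with vehicle (0.60 ± 0.11, adjusted p 0.0129, edgeR). The list had a median of -0.11, and leaving out each library in turn gave 0 to 1 rises. Fos had 9.67, 9.08 and 7.66 CPM with the hormone and 9.90 and 10.2 CPM with vehicle. Jun, the partner of Fos in AP-1, had 88.0, 95.6 and 85.7 CPM with growth hormone and 111 and 105 CPM with vehicle (-0.27, adjusted p 0.153, edgeR), and Myc gave -0.04. Among 22 genes of MAP kinase feedback, 2 rose and 2 fell, while 0.511% of all genes tested rose and 0.0747% fell. Rgs16, which ends G protein signals, had 16.5, 10.8 and 15.3 CPM with the hormone and 4.78 and 3.73 CPM with vehicle (1.73 ± 0.22), and Gadd45b, an NF-kB-induced survival gene, rose by 0.71 and lost its call in 7 settings. Dusp4 and Dusp10, phosphatases of MAP kinases, fell by 1.01 and 0.41 on the log2 scale; Dusp1, the abundant member, gave -0.26 and did not pass.

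Interferon-stimulated genes gave 1 rise and 1 fall among 47 tested members, at a median of 0.12. Irf1, a transcription factor that interferon gamma and NF-kB induce, had 58.3, 52.5 and 55.7 CPM with growth hormone and 32.1 and 40.2 CPM with vehicle (0.62 ± 0.09, adjusted p 0.00237, edgeR; 0.109 without vehicle replicate 2). Oasl1, which restrains translation of Irf7, had 80.8, 96.5 and 101 CPM with the hormone and 124 and 138 CPM with vehicle (-0.50). Usp18, which removes Isg15 from proteins, gave -0.03, and Ifit1, an RNA-binding antiviral protein, 0.29; neither passed. The 7 lists of inflammation (NF-kB, chemokines, cytokines, Toll-like receptors, adhesion, acute phase and interferon) together held 38 of the 89 rises and 2 of the 13 falls among 187 tested genes. Of all genes tested 0.511% rose and 0.0747% fell. These lists were chosen with earlier results of these data known.

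Metabolic genes of the hepatocyte gave few calls. Over all genes tested 0.511% rose and 0.0747% fell. Among 35 tested genes of PPAR-alpha and fatty acid oxidation 1 rose. Of these 31 had a positive change (88.6%, against 91.7% of hepatocyte markers and 49.7% of all genes), and the median was 0.25. In 24 (68.6%) every hormone library lay above both vehicle libraries, against 29.2% of hepatocyte markers and 16.6% of all genes. The list gave 6 rises with DESeq2, 6 with only the 5 libraries and 14 without the low-count filter. It gave 0 with only the female cells and 0 with the replicate block. Angptl4, an inhibitor of lipoprotein lipase (chromosome 17, 33773750 to 33781830), had 273, 250 and 240 CPM with growth hormone and 140 and 153 CPM with vehicle (0.80 ± 0.16, adjusted p 0.0339, edgeR). Its call was lost in 6 settings, among them without either vehicle library and without growth hormone replicate 1 or 3. Pfkfb3, which makes the activator of glycolysis fructose 2,6-bisphosphate, had 24.8, 16.2 and 18.4 CPM with the hormone and 7.79 and 7.25 CPM with vehicle (1.40 ± 0.16) and was the only rise among 30 genes of glucose metabolism. None passed among the tested genes of bile acid synthesis and transport (26), cholesterol synthesis (24), fatty acid synthesis (23), the circadian clock (21), CAR and PXR targets (30), the unfolded protein response (26), heat shock (16), hypoxia (19), prostaglandin synthesis (14) or the cell cycle (38). Of 30 male-biased liver genes Bcl6 was the only call, and of 36 female-biased ones Nipal1, a magnesium transporter, was the only call (0.40). Of 21 targets of the glucocorticoid receptor, Nfkbia and Angptl4 rose.

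**Figure D5:**
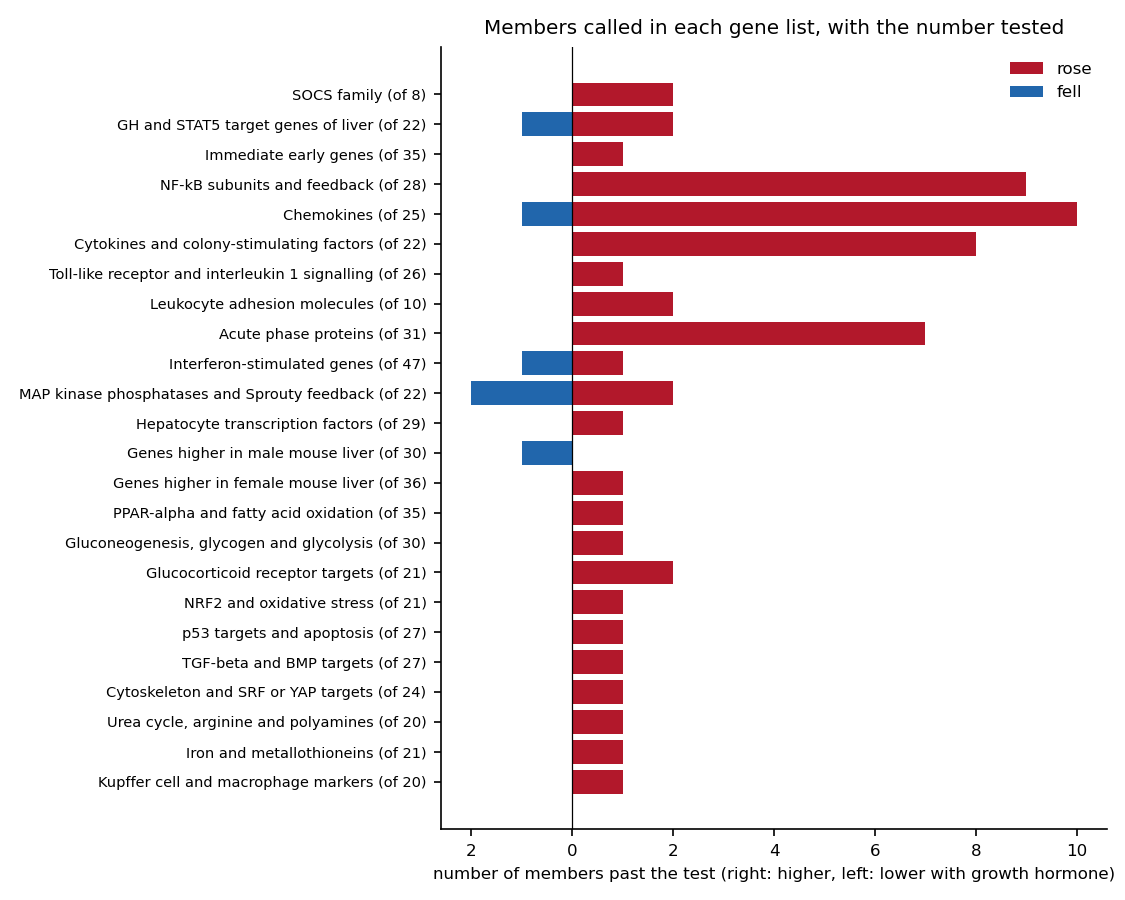
For each gene list with at least 1 called member, bars show how many members were higher (red, to the right) or lower (blue, to the left) with growth hormone, with the number tested in brackets. Chemokines (10 of 25), NF-kB regulators (9 of 28), cytokines (8 of 22) and acute phase genes (7 of 31) have the longest bars, against 0.511% of all tested genes that rose. Some genes are in more than 1 list, and some cytokines passed the low-count filter only through the hormone libraries.

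The 13 falls were between -1.07 and -0.29 on the log2 scale. The largest was that of Slc30a3, a zinc transporter, with 1.02, 1.54 and 1.10 CPM with growth hormone and 2.88 and 2.20 CPM with vehicle (-1.07 ± 0.22, adjusted p 0.0347, edgeR). Dusp4 (chromosome 8, 34807297 to 34819894) had 3.87, 6.77 and 5.44 CPM with the hormone and 10.6 and 10.9 CPM with vehicle. Rnf39 gave -0.94, Trim15 -0.78, Mex3d, an RNA-binding protein, -0.75 and Lmcd1 -0.51. Hes1, the transcription repressor downstream of Notch, gave -0.46, and Tcf3, a helix-loop-helix factor, -0.33. Bcl6 lost its call in 1 of the 14 alternative settings and each of the other 11 falls named by rule in 5 to 9. Without growth hormone replicate 1, Bcl6 alone remained called. The thirteenth, Hgsnat, a lysosomal enzyme (-0.29), is named here only to complete the count.

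Outside the lists lay 38 rises, and those named next were picked after their values were seen, save Plek. Plek, a phagocyte and platelet protein (pleckstrin), had 4.17, 5.27 and 4.79 CPM with growth hormone and 0.961 and 1.00 CPM with vehicle (2.27 ± 0.23, adjusted p 3.05e-05, edgeR). Clec4e, the C-type lectin Mincle of macrophages, had 143 counts over the 3 hormone libraries and 0 over the 2 vehicle libraries, at least 26.7-fold higher, with 3 counts set for the vehicle group as a whole. Clec4e had at most 0.107 CPM in any library without the hormone. It passed the low-count filter only through the hormone libraries. Fpr1, a formyl peptide receptor, had 215 counts with the hormone and 41 with vehicle (ratio 2.94, 2.09 to 4.21). Rnd1, a small GTPase that loosens actin, had 69.0, 60.1 and 63.6 CPM with the hormone and 24.7 and 26.3 CPM with vehicle (1.33 ± 0.09, adjusted p 3.75e-07, edgeR). Pde4b, which breaks down cyclic AMP, rose by 0.64. Osmr, the receptor of oncostatin M, rose by 0.52 and Tnfrsf1b, a receptor of tumour necrosis factor, by 0.69. F3, tissue factor, which starts coagulation, had 20.9, 23.3 and 19.4 CPM with growth hormone and 12.4 and 13.1 CPM with vehicle (0.73). Elf3, an epithelial transcription factor, rose by 1.69 and Fam43a by 1.78. AW112010, a lincRNA in the annotation, rose by 0.73, and 87 of the 89 rises were protein-coding. Of the genes named in this paragraph, Plek, Rnd1, Pde4b, Fam43a and AW112010 passed in all 14 alternative settings and the others did not.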

How the data were processed

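Stranded libraries were made from 250 ng of total RNA depleted of ribosomal RNA, amplified for 12 PCR cycles and read from both ends for 100 cycles, per the labels' protocols. The authors deposited unscaled exon counts, as whole numbers per gene. STAR 2.4.0i and mm10 are named in the submitters' processing notes; the counting program, its annotation and its strand setting were not given in the sources used here. Because 2 count columns share a name, neither was used.

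For the test, filterByExpr (minimum count 10) and TMM scaling were applied in edgeR 4.0.16 under R 4.3.3, which left 17405 genes. A single model of 5 groups in 13 libraries, without covariates, had 8 residual degrees of freedom. Growth hormone minus vehicle was tested with the two-sided quasi-likelihood F test, adjusted by Benjamini-Hochberg, and the SE was taken from the F statistic. CPM values use TMM-scaled library sizes. Coordinates are those of GENCODE M21, matched for 36308 genes. The script was tested on simulated counts. The alternatives were 14 settings, among them DESeq2 1.42.0 and leaving out each library.

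The libraries, the 43 gene lists and the tests were chosen with earlier results of these data known. Of 1065 list memberships 1044 matched by symbol and 8 by gene ID, and 972 were tested; lists are described by counts and medians, without a test. Genes were named by a rule: 14 growth hormone pathway genes whatever their values, at most 12 rises and 12 falls, by size of change (mean count at least 50, groups not overlapping, no predicted models), called members of lists with at least 2 calls, and members of 4 lists that did not pass. The rest were picked after their values were seen. Some genes that passed are not reported here.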

Additional observations from a re-analysis of the deposited data

How the results depend on the processing

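Across 14 alternative settings all 102 calls kept their direction wherever the gene was tested, and 31 genes, all rises, passed in every setting. Among them were Il1a, Il1b, Il6, Nos2, Ccl2, Ccl3, Ccl4, Ccl7, Ccl20, Cxcl1, Cxcl2, Vcam1, Icam1, Tlr2, Nfkbia, Tnfaip3, Csf1 and Socs2. In the main fit, Il1a, Il1b, Il6, Nos2 and Ccl4 passed the low-count filter only through the hormone libraries. Every setting draws on the same hormone and vehicle libraries, so passing in all of them adds no independent support. The number of genes called moved more. DESeq2 called 272 genes (213 rises and 59 falls), a fit without the low-count filter 796 of 35445 (570 and 226), and a fit of only the 5 libraries 156 (128 and 28). A fit of only the female cells called 55 (54 and 1), and leaving out both libraries rich in Xist, growth hormone replicate 1 and a library in conventional female serum, gave 81 (75 and 6). Library size only (100), the upper quartile (101) and a minimum count of 50 (94) stayed near the 102.

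Leaving out a single library gave 33 to 190 calls, with 33 to 153 rises and 0 to 37 falls. The totals were 55 without growth hormone replicate 1, 190 without replicate 2, 57 without replicate 3, 33 without vehicle replicate 2 and 38 without vehicle replicate 3. With 1 vehicle library left, that library is assumed to vary like the other groups. The 0 falls without vehicle replicate 2 are from edgeR, where 1850 genes had an unadjusted p under 0.05. Vehicle replicate 1 could not be left out, since it has no assigned column. Socs1, which did not pass, turned to -0.11 without growth hormone replicate 1 and to -0.11 without both libraries rich in Xist, and ran from -0.11 to 0.29 over the single libraries left out. The cause was not tested in any of these cases.

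With the replicate number as a block (replicate block) 62 genes were called, 59 rises and 3 falls. The labels do not state that the numbers pair the libraries, so the block was not used elsewhere. Same-numbered hormone and vehicle libraries deviated together at r = 0.06 and r = 0.09 across genes, in 2 pairs. With 2 vehicle libraries, their deviations from the group mean mirror each other, so these values cannot decide whether the numbers pair the libraries.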
